A study of Bos taurus with 44 samples.

Results

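BOLA-DRB3, BOLA-DQA2 and BOLA-DMA were the MHC class II genes named on an immune gene array that was hybridised with RNA from blood mononuclear cells of Holstein cows. They were taken as every spot whose platform annotation gives 1 of these 3 symbols alone, which came to 24 of 1680 spots, 8 per gene, and to 3 of 141 named genes. All 3 symbols matched a bovine RefSeq table (assembly ARS-UCD2.0) through their Entrez identifiers, 282530 for BOLA-DRB3, 282535 for BOLA-DQA2 and 282490 for BOLA-DMA. Cows were immunised to raise antibody and cell-mediated responses, and blood was taken 6 days later. The labels class cows as high-Ab or low-Ab, by antibody response, and as high-DTH or low-DTH, by cell-mediated response, with 3 cows in each class. Cow 1 of both high classes is the same animal per the labels and is called the shared cow, so 11 cows were analysed, and all of them were immunised Holsteins. Animal identities are not given otherwise, and cows of the same number in different classes were taken as different animals. There was no unimmunised or unselected group of single cows. The reference on every array was a common RNA standard, so a value says how a cow stood against that standard and not how much transcript it had.

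MHC class II molecules are pairs of an alpha and a beta chain that present peptides from engulfed material to CD4 T cells. They are carried by B cells, monocytes and dendritic cells, and in cattle also by activated T cells. BOLA-DRB3 encodes the beta chain of the DR molecule and is a highly polymorphic gene in cattle. BOLA-DQA2 encodes an alpha chain of the DQ molecule, whose genes are duplicated on part of the bovine haplotypes. BOLA-DMA encodes the alpha chain of DM, which stays inside the cell and helps to exchange the invariant chain fragment for antigenic peptide. In the reference order of genes, BOLA-DRB3 lies between BOLA-DQB1 and LOC100848815 on one side and BOLA-DRB2 and BOLA-DRA on the other. BOLA-DQA2 lies between ELOVL5 and BOLA-DQB, with BOLA-DQA5 close by. BOLA-DMA lies apart from both, next to BOLA-DMB, with PSMB9 on the same side and BRD2 and BOLA-DOA on the other. Transcripts of near-identical copies cannot be separated on a cDNA spot, so the BOLA-DQA2 ratio may include other DQ alpha genes and the BOLA-DRB3 ratio other DR beta genes, and cows that carry different alleles may hybridise differently. Neither was tested.

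The values are the deposited log ratios of 44 arrays, read as log2 of cow over standard. No source used here gives the log base or the direction, so no fold is stated, and the opposite convention would turn every direction together. There were 4 arrays per cow in both dye orientations, but 5 for high-DTH cow 2 and 3 for low-DTH cow 3. Array medians lay between −0.08 and 0.07. The sign of 3 arrays could not be decided: low-Ab cow 1 contributed its arrays 1 and 2, and low-DTH cow 3 its array 3. These had a mean r between −0.23 and −0.20 with arrays of other cows, against 0.05 to 0.29 for the other 41 arrays. They are used as deposited, and values with their signs turned are given where they bear on a result. Spot intensities were not analysed here, so whether a spot was above background is unknown, and the precision is limited by the number of arrays and cows.

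The 8 spots of each gene followed each other closely from array to array. The lowest r between any 2 spots of a gene over the 44 arrays was 0.96 for BOLA-DRB3, 0.86 for BOLA-DMA and 0.82 for BOLA-DQA2. The mean SD between spots on an array was 0.08 for BOLA-DRB3 and 0.08 for BOLA-DMA, ranks 139 and 140 of 141 genes from the widest, and 0.16 for BOLA-DQA2, against 0.16 for the median gene. Single arrays ranged from −1.32 to 2.26 for BOLA-DRB3, from −1.03 to 0.97 for BOLA-DQA2 and from −0.95 to 0.69 for BOLA-DMA. Of 44 arrays, 24 were above 0 for BOLA-DRB3, 18 for BOLA-DQA2 and 14 for BOLA-DMA.

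**Figure D1:**
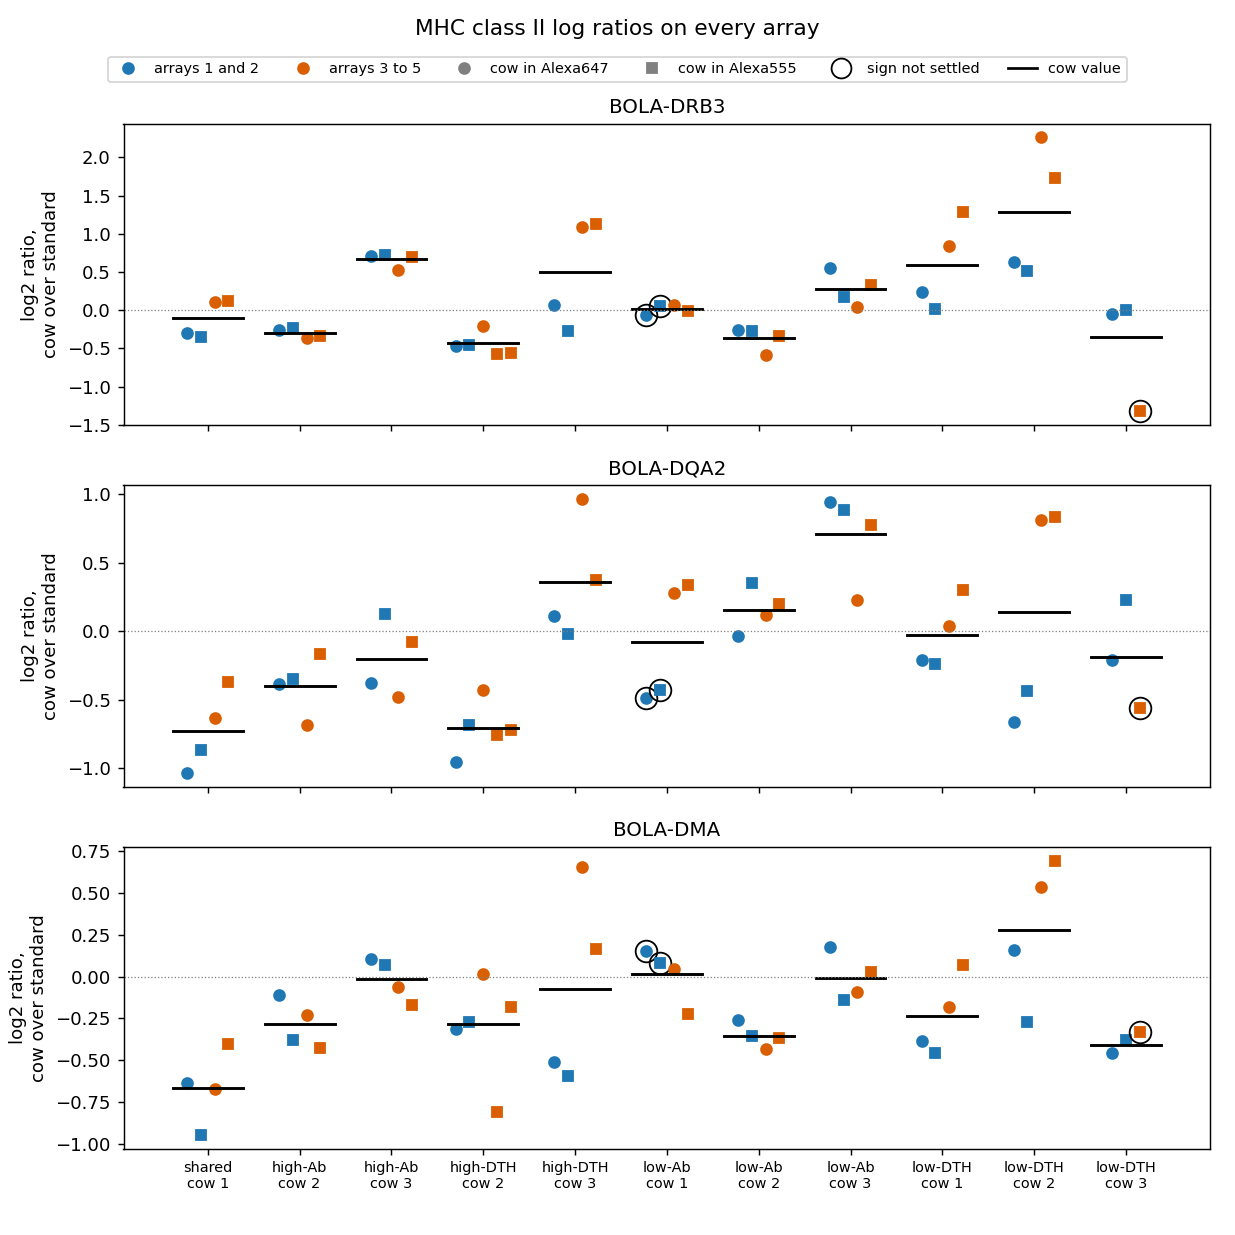
The log2 ratio of cow over standard (y axis, own scale in each panel) for the 3 genes on every array, by cow (x axis); colours mark array numbers 1 and 2 or 3 to 5, circles and squares the dye of the cow, rings the 3 arrays of unsettled sign, and black lines the value per cow. BOLA-DRB3 stands at 2.26 and 1.73 on arrays 3 and 4 of low-DTH cow 2 and at 0.63 and 0.51 on its arrays 1 and 2.

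BOLA-DRB3, the DR beta chain, differed more from cow to cow than most genes on the array. Its value per cow was −0.11 in the shared cow, −0.30 and 0.66 in high-Ab cows 2 and 3, and −0.43 and 0.50 in high-DTH cows 2 and 3. Among low-Ab cows 1, 2 and 3 it was 0.01, −0.37 and 0.27, and among low-DTH cows 1, 2 and 3 it was 0.59, 1.28 and −0.36. Low-DTH cow 2 was the highest and high-DTH cow 2 the lowest, and as deposited every class held cows above and below the standard. The SD over the 11 cows was 0.55, which ranked 8 of 141 genes, against 0.15 for the median gene. The value of low-DTH cow 3 rests on 1 array of unsettled sign, at −1.32 beside −0.05 and 0.00 on its other arrays, and is 0.31 with that array turned.

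BOLA-DQA2, the DQ alpha chain, was lowest in the shared cow at −0.73 and in high-DTH cow 2 at −0.71. High-Ab cows 2 and 3 stood at −0.40 and −0.20, and high-DTH cow 3 at 0.36. Low-Ab cows 1, 2 and 3 stood at −0.07, 0.16 and 0.71, and low-DTH cows 1, 2 and 3 at −0.03, 0.14 and −0.19. All 3 high-Ab cows were therefore below all 3 low-Ab cows, while the 3 low-DTH cows lay inside the range of the high-DTH cows. The SD over cows was 0.43, rank 13 of 141. With the 3 arrays turned, low-Ab cow 1 moved to 0.38 and low-DTH cow 3 to 0.09.

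BOLA-DMA, the DM alpha chain, varied less and was mostly below the standard. It was −0.66 in the shared cow, −0.29 and −0.02 in high-Ab cows 2 and 3, and −0.28 and −0.07 in high-DTH cows 2 and 3. Low-Ab cows 1, 2 and 3 had 0.01, −0.35 and −0.01, and low-DTH cows 1, 2 and 3 had −0.24, 0.28 and −0.41. Only low-Ab cow 1 and low-DTH cow 2 were above 0, and low-Ab cow 1 was at −0.10 with its 2 unsettled arrays turned. The SD over cows was 0.26, rank 35 of 141.

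**Figure D2:**
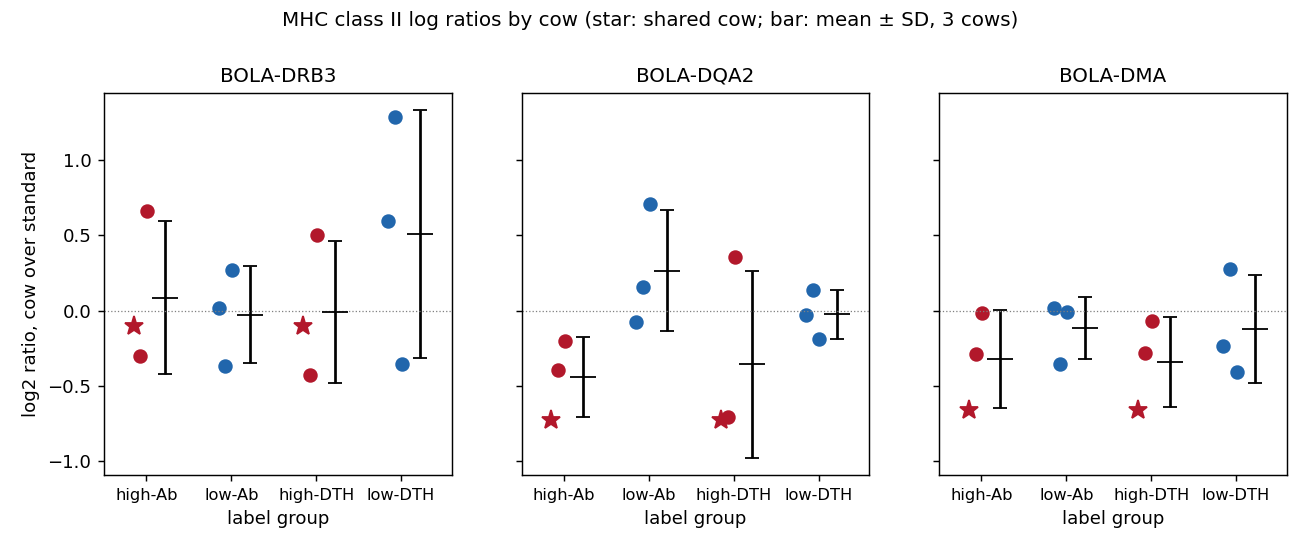
The value per cow (y axis, log2 ratio of cow over standard, same scale in all panels) for the 3 genes in the 4 label groups (x axis); points are cows, the star is the shared cow, drawn in both high groups, and bars are the mean ± SD of 3 cows. For BOLA-DQA2, high-Ab cows lie between −0.73 and −0.20 and low-Ab cows between −0.07 and 0.71.

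By class, the mean BOLA-DRB3 ratio was 0.51 ± 0.82 (SD, n = 3 cows) in low-DTH, 0.09 ± 0.51 (SD, n = 3) in high-Ab, −0.01 ± 0.47 (SD, n = 3) in high-DTH and −0.03 ± 0.32 (SD, n = 3) in low-Ab cows. BOLA-DQA2 ran from 0.26 ± 0.40 (SD, n = 3) in low-Ab over −0.03 ± 0.16 (SD, n = 3) in low-DTH and −0.36 ± 0.62 (SD, n = 3) in high-DTH to −0.44 ± 0.26 (SD, n = 3) in high-Ab cows. BOLA-DMA was −0.12 ± 0.21 (SD, n = 3) in low-Ab, −0.12 ± 0.36 (SD, n = 3) in low-DTH, −0.32 ± 0.33 (SD, n = 3) in high-Ab and −0.34 ± 0.30 (SD, n = 3) in high-DTH cows. For each gene, every step between neighbours in this order was smaller than the larger SD of the classes it separates. Both low classes stood above both high classes for BOLA-DQA2 and BOLA-DMA, and the shared cow, which had the lowest value of all 11 cows for both genes, counts in each high class.

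The first comparison asked whether class II expression differed between cows of high and low antibody response. BOLA-DQA2 was lower in the high-Ab cows by value, at a difference of −0.71 ± 0.23 (SE, 95% interval −1.27 to −0.14), and did not pass the test over all features (limma adjusted p = 0.571). Its unadjusted limma p of 0.0216 ranked 18 of 562 features, and an exact two-sided permutation of the 6 cows gave p = 0.1, the smallest that 3 against 3 allows. BOLA-DMA differed by −0.21 ± 0.19 (SE, 95% interval −0.67 to 0.26, limma adjusted p = 0.938, exact permutation p = 0.5). BOLA-DRB3 differed by 0.11 ± 0.29 (SE, 95% interval −0.58 to 0.80, limma adjusted p = 0.999, exact permutation p = 0.8). No member was called, against a background of 0% (0 of 562 features, 37 of them with an unadjusted limma p under 0.05). All high-Ab cows lay below all low-Ab cows for 1 of the 3 members, BOLA-DQA2, and for 5.67% of named genes (8 of 141). Named genes that lay higher in the high-Ab cows without overlap, such as CD4, are not in that share. The median difference of the 141 named genes was −0.01, and 77 of them were lower in the high-Ab cows. In these bulk samples, fewer cells of a type and less RNA per cell cannot be told apart.

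The BOLA-DQA2 separation was followed through the arrays behind it. On arrays 3 and 4 alone, the 3 high-Ab cows lay between −0.50 and −0.28 and the 3 low-Ab cows between 0.16 and 0.50. On arrays 1 and 2 alone they overlapped, with −0.95 to −0.12 in high-Ab and −0.45 to 0.92 in low-Ab cows, and the low end of the latter is low-Ab cow 1, whose arrays 1 and 2 (−0.48 and −0.43) are of unsettled sign beside 0.28 and 0.34 on its arrays 3 and 4. With the cow in Alexa647 the groups lay apart, at −0.83 to −0.43 against −0.10 to 0.59. With the cow in Alexa555 they overlapped, at −0.62 to 0.02 against −0.04 to 0.83. For none of these parts of the arrays was the share of named genes without overlap counted, so the separations have no background. Turning the 3 arrays gave a difference of −0.86 ± 0.19 (SE, limma adjusted p = 0.428), and leaving them out gave −0.83 ± 0.19 (SE, limma adjusted p = 0.441). The difference was below 0 under all 21 alternatives tried, from −0.88 to −0.48, the latter without low-Ab cow 3, and the limma adjusted p ranged from 0.0398 to 0.956. It passed the threshold in the fit that takes arrays as units with cow as a random block (limma adjusted p = 0.0398). In that fit 16 features passed, against 0 in the main fit. Arrays of a cow are technical replicates, so that fit holds no more cows. For BOLA-DRB3 in the same comparison the direction rested on single cows, since the difference was −0.18 without high-Ab cow 3 and −0.06 without low-Ab cow 2. For BOLA-DMA it was −0.03 without the shared cow and −0.36 without high-Ab cow 3.

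The second comparison set high-DTH against low-DTH cows. All 3 genes were lower by value in the high-DTH cows, and none passed the test. The difference was −0.52 ± 0.45 (SE, 95% interval −1.60 to 0.56, limma adjusted p = 0.769, exact permutation p = 0.4) for BOLA-DRB3. It was −0.33 ± 0.31 (SE, 95% interval −1.07 to 0.41, limma adjusted p = 0.784, exact permutation p = 0.4) for BOLA-DQA2 and −0.22 ± 0.23 (SE, 95% interval −0.77 to 0.34, limma adjusted p = 0.797, exact permutation p = 0.5) for BOLA-DMA. The background was again 0% (0 of 565 features, 55 with an unadjusted limma p under 0.05). The cows of the 2 classes overlapped for all 3 members, whereas 7.09% of named genes (10 of 141) lay lower in the high-DTH cows without overlap. Of the 141 named genes, 85 were lower in the high-DTH cows, with a median difference of −0.03. With the 3 arrays turned, the BOLA-DRB3 difference was −0.74 ± 0.34 (SE, limma adjusted p = 0.42), and the classes still overlapped. Leaving the 3 arrays out gave −0.63 ± 0.39 (SE, limma adjusted p = 0.616). Turned values were −0.43 ± 0.31 (SE, limma adjusted p = 0.628) for BOLA-DQA2 and −0.27 ± 0.21 (SE, limma adjusted p = 0.656) for BOLA-DMA. Single cows carried much of the differences as deposited. BOLA-DRB3 differed by −0.13 without low-DTH cow 2 and by −0.95 without low-DTH cow 3. BOLA-DQA2 differed by −0.69 without high-DTH cow 3, by −0.16 without high-DTH cow 2 and by −0.15 without the shared cow. BOLA-DMA differed by −0.02 without low-DTH cow 2, by −0.06 without the shared cow, by −0.35 without high-DTH cow 3 and by −0.36 without low-DTH cow 3. The BOLA-DRB3 difference was −0.52 on arrays 1 and 2 alone (limma adjusted p = 0.359). There the classes did not overlap, with high-DTH cows from −0.46 to −0.11 and low-DTH cows from −0.03 to 0.57. The share of named genes without overlap on these arrays was not counted. On arrays 3 to 5 alone the difference was −0.30 (limma adjusted p = 0.973). High-DTH cows then ranged from −0.44 to 1.10 and low-DTH cows from −1.32 to 2.00. The value of −1.32 is the array of unsettled sign of low-DTH cow 3.

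Taking every cow once, 5 high cows of either class were set against 6 low cows. BOLA-DQA2 was −0.33 ± 0.44 (SD, n = 5) in the high and 0.12 ± 0.32 (SD, n = 6) in the low cows. Its difference was −0.45 ± 0.21 (SE, 95% interval −0.91 to 0.0038, limma adjusted p = 0.996), with an unadjusted limma p of 0.0516, rank 21 of 561, and an exact permutation p of 0.0823. BOLA-DRB3 differed by −0.17 ± 0.31 (SE, limma adjusted p = 0.996, exact permutation p = 0.628), and by 0.03 without low-DTH cow 2. BOLA-DMA differed by −0.14 ± 0.15 (SE, limma adjusted p = 0.996, exact permutation p = 0.381). The background was 0% (0 of 561 features, 20 with an unadjusted limma p under 0.05), and 0% of named genes (0 of 141) lay lower in all high than in all low cows, nor did any member. This comparison shares its cows with those by trait, so it is no separate evidence.

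Whether the high-minus-low difference itself differed between the traits was tested in 1 fit of all 11 cows. The Ab difference minus the DTH difference was 0.63 ± 0.57 (SE, limma adjusted p = 0.873) for BOLA-DRB3, −0.37 ± 0.37 (SE, limma adjusted p = 0.877) for BOLA-DQA2 and 0.01 ± 0.25 (SE, limma adjusted p = 0.983) for BOLA-DMA. No member was among the 1.25% of features past the threshold (7 of 561, with 57 at an unadjusted p under 0.05). The 95% intervals were −0.67 to 1.94 for BOLA-DRB3, −1.21 to 0.46 for BOLA-DQA2 and −0.55 to 0.57 for BOLA-DMA, so that differences between the traits as large as those within them remain possible at this number of cows.

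**Figure D3:**
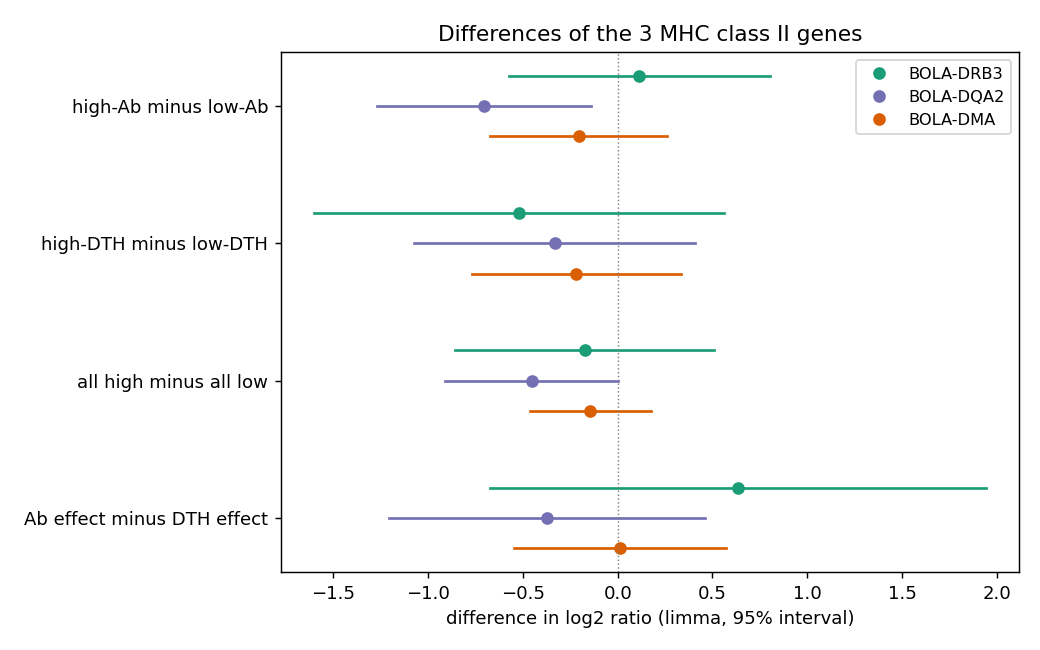
The difference in log2 ratio (x axis) of the 3 genes in the 4 comparisons (y axis); points are limma estimates and lines their 95% intervals. The interval of BOLA-DQA2 for high-Ab minus low-Ab runs from −1.27 to −0.14, and each of the other intervals spans 0.

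The ratios of BOLA-DRB3 and BOLA-DQA2 moved more between array numbers of the same cow than those of most genes. Within arrays 1 and 2, or within arrays 3 to 5, the arrays of a cow spanned 0.17 on average for BOLA-DRB3, 0.26 for BOLA-DQA2 and 0.22 for BOLA-DMA, against 0.21 for the median gene. Between the mean of arrays 1 and 2 and that of arrays 3 to 5, the mean absolute change was 0.54 for BOLA-DRB3 (rank 13 of 141), 0.45 for BOLA-DQA2 (rank 20) and 0.27 for BOLA-DMA (rank 48), against 0.22 for the median gene. The labels do not say what separates these array numbers.

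For BOLA-DRB3 the largest changes lay in cows labelled for DTH. From arrays 1 and 2 to the later arrays, BOLA-DRB3 changed by 1.43 in low-DTH cow 2, by 1.21 in high-DTH cow 3, by 0.94 in low-DTH cow 1, by 0.01 in high-DTH cow 2 and by −1.30 in low-DTH cow 3, whose later array is of unsettled sign. In the 5 cows labelled for Ab alone its change lay between −0.20 and 0.03, and in the shared cow it was 0.44. BOLA-DQA2 changed by 1.38 in low-DTH cow 2, from −0.66 and −0.44 on arrays 1 and 2 to 0.82 and 0.84 on arrays 3 and 4. The next largest BOLA-DQA2 change, 0.76, was in low-Ab cow 1, whose arrays 1 and 2 are of unsettled sign, and high-DTH cow 3 followed with 0.62. The other cows labelled for DTH alone had BOLA-DQA2 changes of −0.57, 0.18 and 0.39, and those labelled for Ab alone ranged from −0.41 to 0.76. BOLA-DMA changed by 0.96 in high-DTH cow 3, from −0.51 and −0.60 to 0.65 and 0.16, and by −0.21 to −0.05 in the 5 cows labelled for Ab alone. For each gene the change was above 0 in 4 of the 5 cows labelled for DTH alone. The cow below 0 was high-DTH cow 2 for BOLA-DMA (−0.04). For BOLA-DRB3 and BOLA-DQA2 it was low-DTH cow 3, so these 2 counts rest on its array of unsettled sign. Over all spots, arrays of 3 of these cows agreed less across than within array numbers, with a mean r across of 0.05 in high-DTH cow 3 (0.62 and 0.63 within), 0.16 in low-DTH cow 2 (0.61 and 0.64 within) and 0.33 in low-DTH cow 1 (0.58 and 0.73 within). In high-DTH cow 2 the mean r across was 0.65, beside 0.75 and 0.64 within. The cows with arrays of unsettled sign had a mean r across below 0, at −0.49 in low-Ab cow 1 (0.35 and 0.18 within) and −0.56 in low-DTH cow 3 (0.90 within arrays 1 and 2). The median SD over the spots of an array was 0.32 on arrays 1 and 2 and 0.56 on the later arrays of the cows labelled for DTH alone, and 0.40 and 0.47 for those labelled for Ab alone. The part of this in the class II values was not tested.

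Values also differed between the dye orientations of a cow. The means given here are signed, so they cannot be set against the absolute changes between array numbers. BOLA-DQA2 read lower with the cow in Alexa647 than in Alexa555 in 9 of 11 cows (mean difference −0.12 ± 0.21, SD). BOLA-DMA read lower in Alexa647 in 2 of 11 cows (0.10 ± 0.13, SD), and BOLA-DRB3 in 5 of 11 (0.09 ± 0.22, SD). The median for BOLA-DRB3 was 0.02. Its largest difference, 0.61, was in low-DTH cow 3, whose Alexa555 value includes its array of unsettled sign. Dye differences were not recomputed with the 3 arrays turned. Each value per cow gives both dyes equal weight.

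Across the 11 cows, BOLA-DRB3 and BOLA-DMA had the highest correlation of the 3 pairs. For BOLA-DRB3 and BOLA-DMA, Pearson's r was 0.743 (permutation p = 0.00805, adjusted over 3 pairs 0.0241) and Spearman's rho 0.691 (permutation p = 0.0232, adjusted 0.0697). Without low-DTH cow 2 and high-Ab cow 3, the cows farthest from the median of BOLA-DRB3, r was 0.488 over 9 cows. Leaving out the farthest cows narrows the range of a gene, so this cannot show how far the relation rests on them. BOLA-DQA2 and BOLA-DMA gave r = 0.593 (permutation p = 0.0542, adjusted 0.0813) and rho = 0.500 (permutation p = 0.123, adjusted 0.184), with r = 0.381 without low-Ab cow 3 and the shared cow. BOLA-DRB3 and BOLA-DQA2 gave r = 0.446 (permutation p = 0.168, adjusted 0.168) and rho = 0.364 (permutation p = 0.271, adjusted 0.271), with r = 0.572 without low-DTH cow 2 and high-Ab cow 3. Whether the 3 correlations differ was not tested.

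Within array numbers the relations were uneven. On arrays 3 to 5, r was 0.816 for BOLA-DRB3 and BOLA-DMA, 0.819 for BOLA-DQA2 and BOLA-DMA and 0.719 for BOLA-DRB3 and BOLA-DQA2. There low-DTH cow 3 has only its array of unsettled sign. Without the 2 farthest cows, of which it is 1 for each pair, r was 0.723, 0.845 and 0.493. On arrays 1 and 2, with all 11 cows, r was 0.628, 0.318 and 0.360 for the same pairs (permutation p adjusted over 3 pairs of 0.118, 0.344 and 0.344). Over all arrays with the 3 arrays turned it was 0.746, 0.602 and 0.389. The 3 genes are read on the same arrays, so that anything an array does to all of them enters these values.

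**Figure D4:**
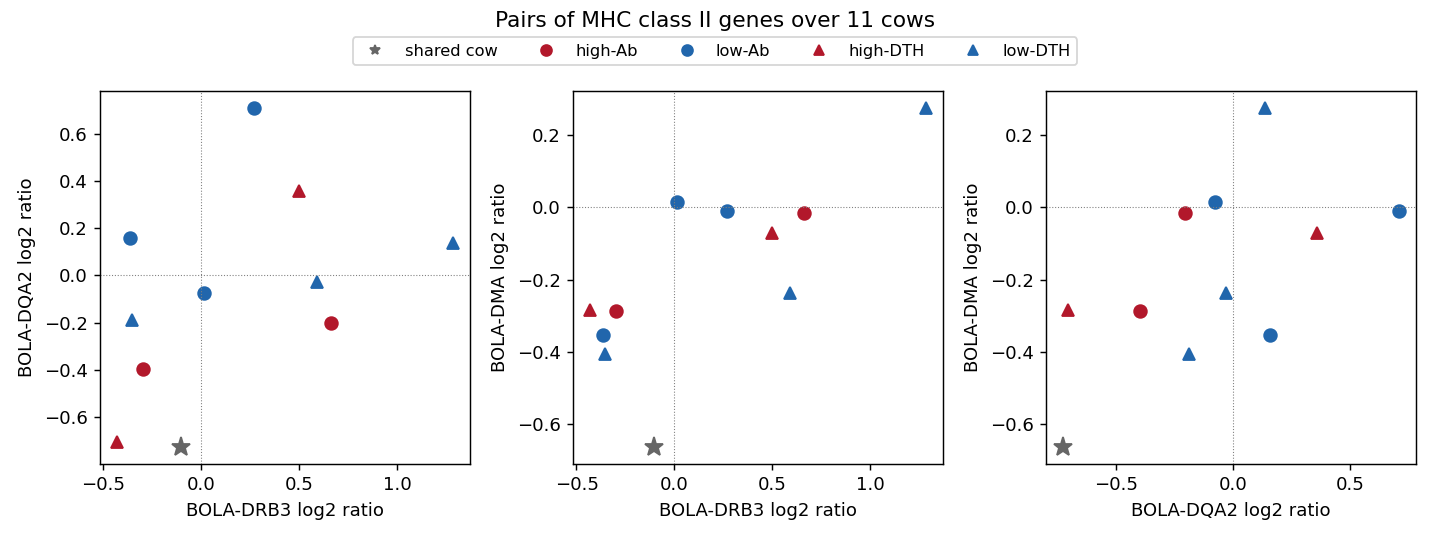
The value per cow of 1 gene against another (both axes, log2 ratio of cow over standard) for the 3 pairs of genes over 11 cows; circles are cows labelled for Ab, triangles for DTH, red is high, blue is low, and the star is the shared cow. In the middle panel low-DTH cow 2, at 1.28 for BOLA-DRB3 and 0.28 for BOLA-DMA, stands apart at the upper right.

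Among the 140 other named genes, the patterns over the 11 cows most like that of BOLA-DRB3 were BOLA-DMA (r = 0.74), PSMB8, a catalytic subunit of the immunoproteasome (0.73), and TCIRG1, a subunit of the vacuolar proton pump (0.73), and the lowest r was with CSF3, a granulocyte growth factor (−0.70). For BOLA-DQA2 they were C4A, a complement component (0.78), IL1RN, the interleukin 1 receptor antagonist (0.77), and PRP6, a prolactin-related protein (0.70), and the lowest was CD163L1, which in cattle marks gamma delta T cells (−0.73). For BOLA-DMA they were CD40, a costimulatory receptor of antigen-presenting cells (0.80), TLR2, a receptor for bacterial lipoproteins (0.76), and BOLA-DRB3 (0.74), and the lowest was IL18, an inflammatory cytokine (−0.81). These are the extremes of 140 correlations over 11 cows that share arrays, given as a description. With the 3 arrays turned, BOLA-DRB3 and BOLA-DMA ranked first for each other (r = 0.75). PRP6 then ranked first for BOLA-DQA2 (0.69), ahead of C4A (0.67, rank 3) and IL1RN (0.62, rank 7), and CD163L1 moved to −0.57 and rank 135. For BOLA-DRB3, PSMB8 moved to 0.66 (rank 9) and TCIRG1 to 0.64 (rank 11), while CSF3 still had the lowest r (−0.76). For BOLA-DMA, TLR2 kept rank 2 (0.70), CD40 moved to 0.69 (rank 3) and IL18 to −0.69 (rank 135).

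Little else of the class II pathway was on the array. Of 26 listed pathway genes, 4 were measured, the 3 members and CD4, the T cell coreceptor that binds class II molecules. CD4 differed by 0.19 ± 0.10 (SE, limma adjusted p = 0.858) between high-Ab and low-Ab cows, without overlap, and by 0.05 ± 0.11 (SE, limma adjusted p = 0.868) between high-DTH and low-DTH cows. How many named genes lay higher in the high-Ab cows without overlap was not counted. The median of these 4 genes was −0.05 for Ab and −0.27 for DTH. CD74, CIITA and the RFX factors were not among the named genes.

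Of 8 costimulatory genes, 6 were measured and none passed in either comparison, with 1 higher and 5 lower in high-Ab cows (median −0.02) and 3 higher and 3 lower in high-DTH cows (median −0.01). CD40 differed by −0.30 ± 0.12 (SE, limma adjusted p = 0.505) in the DTH comparison, without overlap, and by −0.03 ± 0.13 (SE, limma adjusted p = 0.999) in the Ab comparison. Of 16 inducers and suppressors of class II genes, 11 were measured and none passed, with 5 higher and 6 lower in high-Ab cows (median −0.03) and 4 higher and 7 lower in high-DTH cows (median −0.02). In the Ab comparison the largest differences of these were −0.14 ± 0.11 (SE, limma adjusted p = 0.926) for CSF2, a myeloid growth factor, and 0.11 ± 0.12 (SE, limma adjusted p = 0.954) for IFNG, the interferon that induces class II genes. In the DTH comparison they were 0.24 ± 0.21 (SE, limma adjusted p = 0.776) for IL10, which lowers class II on monocytes, and −0.18 ± 0.10 (SE, limma adjusted p = 0.585) for STAT6, which acts downstream of interleukin 4. Of 15 genes of the MHC class I pathway, 7 were measured and none passed, with 6 higher and 1 lower in high-Ab cows (median 0.09) and 1 higher and 6 lower in high-DTH cows (median −0.26). PSMB9, an immunoproteasome subunit whose gene lies close to BOLA-DMB in the reference, differed by 0.27 ± 0.18 (SE, limma adjusted p = 0.9) for Ab and by −0.38 ± 0.15 (SE, limma adjusted p = 0.5) in the DTH comparison. B2M, the light chain of class I molecules, differed by 0.38 ± 0.13 (SE, limma adjusted p = 0.494) in the DTH comparison.

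Ratios to a standard do not say whether a cell type is present, so the label of mononuclear cells could be checked only for shifts between cows, and none of the marker genes passed in either comparison. Of 9 B cell markers, 3 were measured (CD72, IGHM and JCHAIN), with median differences of −0.05 for Ab and −0.26 for DTH. Their mean per cow ranged from −0.46 to −0.08 in high-Ab, from −0.48 to 0.07 in low-Ab, from −0.46 to 0.12 in high-DTH and from −0.03 to 0.61 in low-DTH cows. Of 9 monocyte and macrophage markers, 3 were measured (CD14, FCGR1A and TLR4), with medians of −0.05 and 0.09. Their mean per cow ranged from −0.12 to −0.10 in high-Ab, from −0.12 to −0.03 in low-Ab, from −0.10 to 0.06 in high-DTH and from −0.24 to 0.02 in low-DTH cows. CCR7 alone was measured of 6 dendritic cell markers (differences of −0.02 for Ab and 0.07 for DTH).

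T cells, natural killer cells and neutrophils were read the same way. Of 11 T cell markers, 7 were measured, with medians of 0.41 and 0.33 in the Ab and DTH comparisons. In high-Ab cows 6 were higher and 1, CD28, was lower by value (−0.04), and in high-DTH cows all 7 were higher. Their mean per cow ranged from 0.32 to 0.69 in high-Ab, from −0.04 to 0.17 in low-Ab, from 0.37 to 0.69 in high-DTH and from 0.0014 to 0.35 in low-DTH cows. The mean of the T cell markers, though not each marker, thus stood higher in the same high-Ab cows in which BOLA-DQA2 stood lower. As deposited, this mean also stood higher in high-DTH than in low-DTH cows, whose BOLA-DQA2 values overlapped. With the 3 arrays turned, the T cell mean ranged from 0.17 to 0.24 in low-Ab cows and from 0.0014 to 0.49 in low-DTH cows. CD163L1, of 2 listed gamma delta T cell markers, was higher by value in high-Ab cows by 0.76 and in high-DTH cows by 0.45. Of 5 natural killer cell markers, 2 were measured (medians −0.19 and −0.14), and of 5 neutrophil markers, 2 were measured (medians −0.53 and −0.01), with LTF, a granule protein, at −1.04 ± 0.54 (SE, limma adjusted p = 0.858) in the Ab comparison. The part of these cell types in the class II differences was not tested.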

How the data were processed

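The authors hybridised amplified RNA of each cow together with a common RNA standard, labelled with Alexa647 and Alexa555 and with dyes swapped, per the labels' protocols. The deposited values are 1 log ratio per spot and array, taken as log2. The log base, scanner, background correction and normalization method are stated in none of the sources used here. Opposite dyes of a cow were taken as already turned. Of 1680 spots, 1224 had 1 gene symbol, 16 several and 440 none, and 16 spots of a bacterial control gene were left out of the 141 named genes. Spots of a gene were averaged, then arrays within each dye orientation of a cow, then the 2 orientations. Tests used lmFit and eBayes of limma 3.58.1 (R 4.3.3). They ran over all features that had values in both orientations of every cow compared. P-values were adjusted by Benjamini-Hochberg, and 0.05 was the threshold. Unnamed spots were tested 1 by 1. Exact permutation tests of cows were two-sided. Correlations used 100000 permutations (scipy 1.17.1). The scripts were tested on simulated data.

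The members and all gene and marker lists were chosen with earlier results of these data known. Besides the members, the genes named are those with the 3 highest and the lowest r with each member, at most 4 listed genes of largest difference for each of the pathway, costimulation, inducer and class I lists, and the marker genes. Arrays of a cow are technical replicates, and cows are the replicates of the tests. Alternatives changed the 3 unsettled arrays, the averaging, the dye, the array numbers, the normalization, the features tested, the unit and block of the fit, and the cows.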

Additional observations from a re-analysis of the deposited data

Results flagged for a closer look

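Within the 4 arrays of high-Ab cow 3, BOLA-DRB3 on array 3 stood at 0.53, while the other 3 arrays lay between 0.70 and 0.72. The gap was 0.906 of the whole range. It was 1 of 36 groups of arrays or cows examined for the 3 genes, and about 1 in 20 groups would stand out so by chance.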

How the results depend on the processing

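Of 288 values of the members recomputed under an alternative, 272 kept their direction and their side of the threshold. BOLA-DQA2 in the Ab comparison was −0.71 with arrays as units and cow as a random block and then passed (limma adjusted p = 0.0398), as 1 of 16 features. With a replicate block on the array number the limma adjusted p was 0.06, and with a replicate block on the cow number it was 0.399. The labels do not say whether cow numbers pair the cows, and this was not settled. Over 561 features, the r of same-numbered cows' deviations was −0.08, −0.27 and −0.09 in the Ab and −0.24, −0.56 and −0.59 in the DTH comparison. In the Ab comparison the cow-number block gave BOLA-DQA2 an SE of 0.13, against 0.23 without it. For BOLA-DRB3 the SE was 0.15 against 0.29, and for BOLA-DMA it was 0.19 in both fits. Leaving out each cow in turn, BOLA-DRB3 ranged from −0.18 to 0.31 in the Ab comparison and from −0.32 to 0.034 over all high and low cows, and the difference between traits for BOLA-DMA from −0.19 to 0.15. The last was also −0.089 with the cow in Alexa647 only, −0.014 on arrays 1 and 2 and −0.026 with arrays centred on their medians. The cause was not tested.

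The r of BOLA-DRB3 and BOLA-DMA was 0.656 with the cow in Alexa647 (permutation p adjusted over 3 pairs 0.0849) and 0.628 on arrays 1 and 2 (0.118). That of BOLA-DQA2 and BOLA-DMA was 0.652 in Alexa555 (0.046) and 0.819 on arrays 3 to 5 (0.00216), and that of BOLA-DRB3 and BOLA-DQA2 was 0.719 on arrays 3 to 5 (0.0118). The values on arrays 3 to 5 include low-DTH cow 3 through its array of unsettled sign alone.

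The number of features past the threshold in the Ab comparison was 16 with arrays as units, 14 with the array-number replicate block and 0 to 1 leaving out each cow (1 without the shared cow). It was 2 in the DTH comparison and 9 over all high and low cows with arrays as units, and 9 over all cows with the array-number replicate block. For the difference between traits, 7 became 0 with the 3 arrays turned or left out, with either dye alone, on arrays 1 and 2 or 3 to 5 alone, with quantile normalization and with the cow-number replicate block, 4 with a plain mean over arrays, 2 with named genes only, 2 with arrays as units, 13 with the array-number replicate block, and 0 to 7 leaving out each cow. No intensities were analysed here, so what a weak signal limits is unknown.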
